A study of Drosophila melanogaster with 10 samples.

Results

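Transcripts with a fitted peak in the afternoon, from ZT6 up to ZT12, were described in fly heads over a day. ZT, zeitgeber time, counts hours from lights-on by convention. The members are the 253 probe sets, of 10181 tested, whose 24-hour cosine fit had an unadjusted p under 0.05 and a peak in that window. The rule allowed up to 300, so none was cut for number. A probe set is a group of short array probes for 1 transcript or a few related ones. Of the 253, 215 had 1 gene symbol and covered 210 genes, 9 had several and 29 had none here.

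The flies were of the yw strain, which the labels call a control strain and which carries mutations in the body colour gene yellow and the eye colour gene white. Heads were collected at 6 times, 4 hours apart, with 3 arrays at ZT3, 1 at ZT7, 1 at ZT11, 3 at ZT15, 1 at ZT19 and 1 at ZT23. No source used here gives the light schedule or the age and sex of the flies. Nothing says whether replicates came from separate cultures, so p-values reflect the spread among these arrays alone, and that spread may be technical. A level here is the natural log of a deposited value, taken to be on a log2 scale. Should the deposited values be plain intensities instead, differences would be 1.44 times as large.

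The 10 arrays split in 2. The set of 4 held both ZT3 arrays numbered 1 and 2 and the ZT15 arrays numbered 2 and 3, and the set of 6 held ZT3 replicate 3, ZT15 replicate 1 and the single-array times. Arrays of the same set correlated at 0.957 to 0.989 across tested probe sets, and arrays of different sets at 0.603 to 0.749. The fit that chose the members therefore carried a set term. ZT7, ZT11, ZT19 and ZT23, the times that decide between an afternoon and a late-night peak, all lie in the set of 6 and have no replicate. The rule used the levels of all 10 arrays, so levels, amplitudes and peaks below are a description of the choice, without a test of it.

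In fly clock cells the proteins of Clk and cyc switch on per, tim, vri, Pdp1 and cwo, whose RNA accumulates in the evening, while Clk and cry RNA accumulates at the opposite time of day. Afternoon peaks fall between these classes. Much of the RNA in a head comes from cells outside the clock network, among them photoreceptors, other neurons, glia, fat body and the sensory cells of the antenna, so rhythms of one cell type are diluted. In such bulk samples fewer cells of a type and less RNA per cell cannot be told apart.

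None of the 8 core clock genes was a member. By the unadjusted p, 7 of the 8 passed, with peaks outside the window. The nearest were cry, which encodes a blue-light photoreceptor, at ZT5.12 (amplitude 0.93 ± 0.097, SE), and cwo, a repressor in the clock loop, at ZT13.3 (0.52 ± 0.047). Amplitude is how far the fitted curve climbs above its own mean. Of 11 clock kinases and degradation factors and 20 clock neuropeptide and output genes, 0 had a member probe set. Of all genes 2.51% had one, so lists this small would mostly hold none, and nothing is read from these zeros.

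Over all peak times, 1042 of the 10181 probe sets (10.2%) had an unadjusted p under 0.05, and the 253 members are 2.49% of those tested. The same rule gave 199 probe sets from ZT0 to ZT6, 289 from ZT12 to ZT18 and 301 from ZT18 to ZT24. The window was the most common place for a fitted peak of any size, holding 3432 of all 10181 probe sets (33.7%), yet the share of them with p under 0.05 was 7.37%, against 10.6%, 12.6% and 11.7% in the other 6-hour windows in the same order. After adjustment over all 10181 probe sets (limma, array set as a block), 75 passed at any peak time, or 0.737%. Of these, 2 were members (0.0196% of those tested), against 26, 28 and 19 in the other windows. The rule used this contrast, so nothing is read from these shares.

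**Figure D1:**
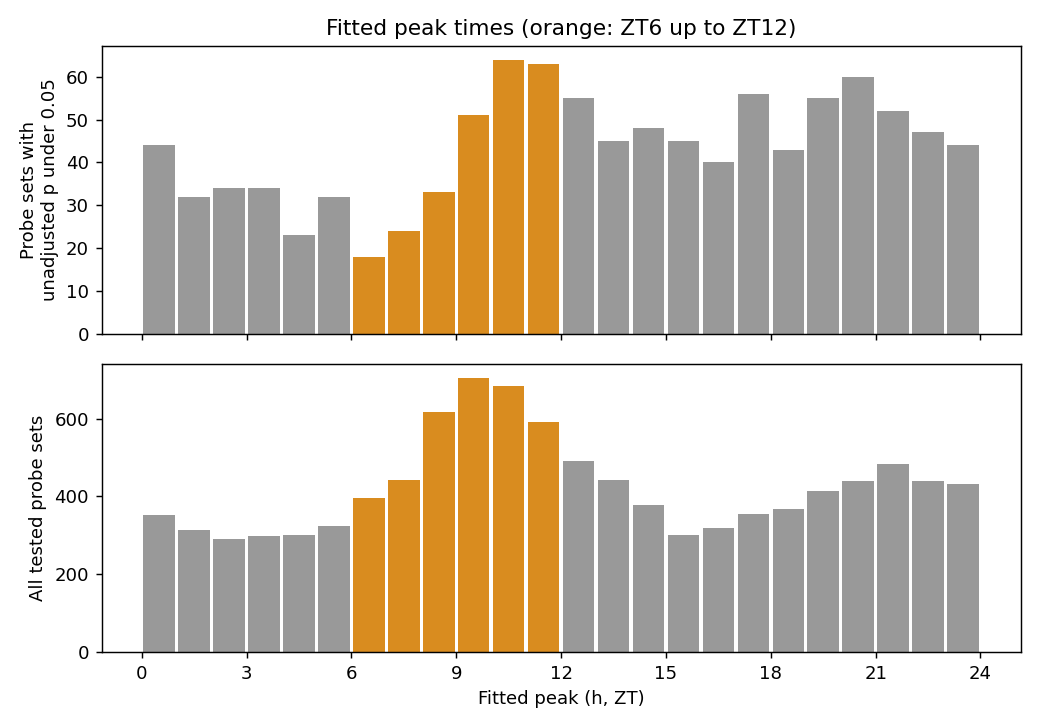
Number of probe sets by fitted peak hour (x axis, ZT in hours), for the 1042 with an unadjusted p under 0.05 (top) and for all 10181 tested (bottom), with hours from ZT6 up to ZT12 in orange. The orange bars hold 253 of 1042 in the top panel and 3432 of 10181 in the bottom panel. They are highest from ZT10 to ZT12 in the top panel and from ZT9 to ZT11 in the bottom panel.

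The members' peaks were uneven within the window. From ZT6 to ZT7 there were 18, from ZT7 to ZT8 24, from ZT8 to ZT9 33, from ZT9 to ZT10 51, from ZT10 to ZT11 64 and from ZT11 to ZT12 63. All tested probe sets were uneven too, with 396, 441, 617, 704, 684 and 590 over the same hours. The median peak was ZT10.03, with a median standard error of 0.739 h. Most rhythms were small. Amplitudes ran from 0.0457 to 1.64 with a median of 0.204, a peak 1.33 times the trough. An amplitude over 0.5 was reached by 25 members and one over 1 by 9, while 157 were under 0.25. The residual SD was 0.096 at the median of the members, against 0.188 over all tested probe sets.

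At the p threshold, the last members were Srg1 (p 0.0496, amplitude 0.37) and Stip1, a co-chaperone of Hsp90 (p 0.0497, amplitude 0.24), beside a probe set without a gene name. The first outside were Rm62, an RNA helicase (p 0.0504), then a probe set without a gene name (p 0.0505) and Fatp, a fatty acid transport protein (p 0.051). At the early edge the glutathione transferase GstD9 peaked at ZT6.002 inside and CG15211 at ZT5.998 outside. At the late edge Ahcy, an enzyme of methionine metabolism, peaked at ZT11.96 inside and rudimentary (r), an enzyme of pyrimidine synthesis, at ZT12.004 outside.

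The members' common shape was a high value at ZT11 and low values at ZT19 and ZT23. Among the 6 arrays of the set of 6, 173 members (68.4%) were highest at ZT11, 42 (16.6%) at ZT7, 30 on ZT15 replicate 1 and 8 on ZT3 replicate 3. Over all tested probe sets 25.2% were highest at ZT11, 11.2% at ZT7, 15.6% on ZT15 replicate 1 and 6.98% on ZT3 replicate 3. ZT7 or ZT11 was thus highest for 215 members (85%), against 36.5% of all tested. ZT23 was the lowest array for 144 members, ZT19 for 83, ZT3 replicate 3 for 25, ZT15 replicate 1 for 1, and ZT7 and ZT11 for 0. Over all tested probe sets these shares were 23.4%, 22.9%, 19.9%, 8.0%, 17.2% and 8.54% in the same order. ZT19 or ZT23 was lowest for 227 members (89.7%), against 46.4%. In 251 of 253 members both ZT7 and ZT11 exceeded both ZT19 and ZT23, against 14.5% of all tested. The rule itself selects this order. In 89 members (35.2%) ZT7 and ZT11 both exceeded each of the other 4 arrays of the set of 6, against 3.43% of all tested.

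**Figure D2:**
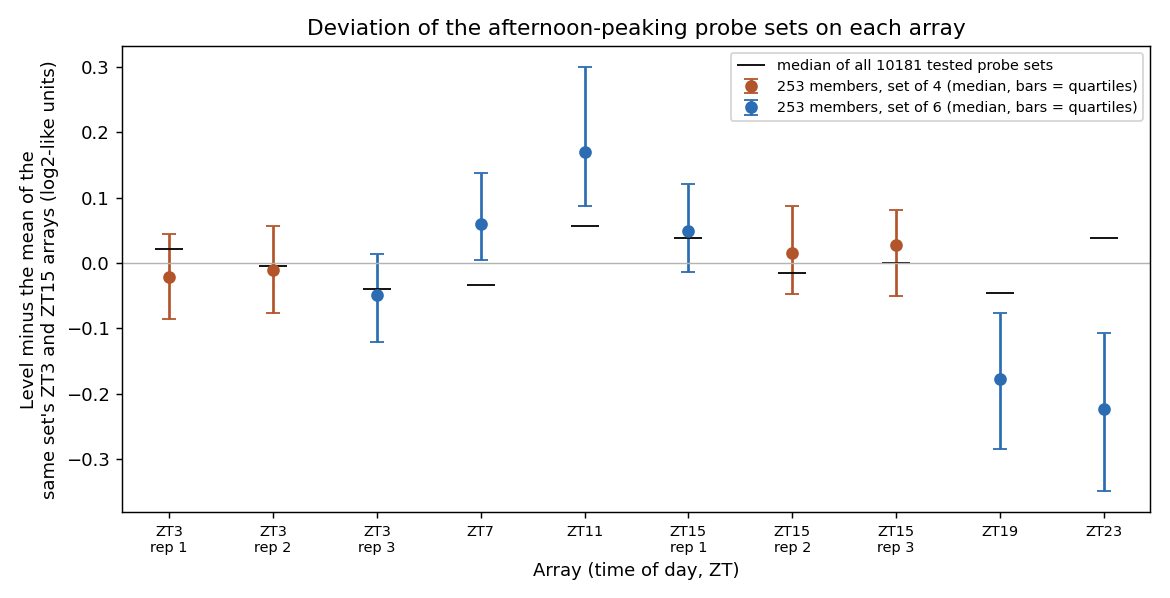
Each array (x axis) against the deviation of the 253 members from the mean of the ZT3 and ZT15 arrays of the same set (y axis, natural log of the deposited value, read as log2), with points at the median, bars from the 25th to the 75th percentile and black dashes at the median of all 10181 tested probe sets. The members' median was 0.17 at ZT11, -0.178 at ZT19 and -0.224 at ZT23, and lay between -0.049 and 0.06 on the other arrays.

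Several tissue markers stood apart on the same single arrays. ZT11 was the highest array of its set for 18 of 23 genes of the eggshell and oocyte, and there their summed level was 13.31, against 12.6 on ZT3 replicate 3 and 8.79 to 9.66 on the others. Of 32 neuron and synapse genes 29 were highest at ZT23, and their median was 10.51 there, against 9.87 to 10.17 on the other arrays of the set of 6. Of 16 accessory gland genes 13 were highest at ZT19, and of 23 testis genes 15 at ZT7. Over all tested probe sets 25.2% were highest at ZT11, 30.8% at ZT23, 10.1% at ZT19 and 11.2% at ZT7. Phototransduction genes leaned to ZT23 as well, with 12 of 17 highest there. The part of these markers in the members' shape was not tested. Of the eggshell and oocyte genes only 2 reached the mean level of 6 needed to be a member, and of the testis genes 19. None of the eggshell and oocyte, neuron and synapse, accessory gland and testis lists contained a member. Of all genes 2.51% had one, so lists of these sizes would hold few or none, and nothing is read from these zeros. Without ZT11, 115 of the 253 met the rule, and without ZT23, 110. Leaving out any other array lost members too, with 133 left without ZT19 and 178 without ZT7. Without 1 of the ZT3 or ZT15 arrays 167 to 189 were left.

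CG2121 was the only member with 1 gene symbol to pass after adjustment over all probe sets. It was at 9.54, 9.44 and 8.79 on the 3 ZT3 arrays, 8.97 at ZT7, 9.97 at ZT11, 9.28, 10.19 and 10.10 at ZT15, 8.06 at ZT19 and 7.28 at ZT23. In the set of 6 the level was highest at ZT11 and lowest at ZT23, and in both array sets ZT15 lay above ZT3. Its amplitude was 1.11 ± 0.178 (SE) with a peak at ZT10.36 ± 0.45 h, or 4.63-fold from trough to peak, with a limma adjusted p of 0.0384. The other member to pass, at 0.04, was a probe set annotated to 2 genes, with an amplitude of 0.6 and a peak at ZT11.53. No member passed when 12991 probe sets with a mean of 4 or more were tested, after quantile normalization, without the set term, or without any 1 of 7 arrays (each ZT15 replicate, ZT3 replicates 1 and 2, ZT11 or ZT23).

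**Figure D3:**
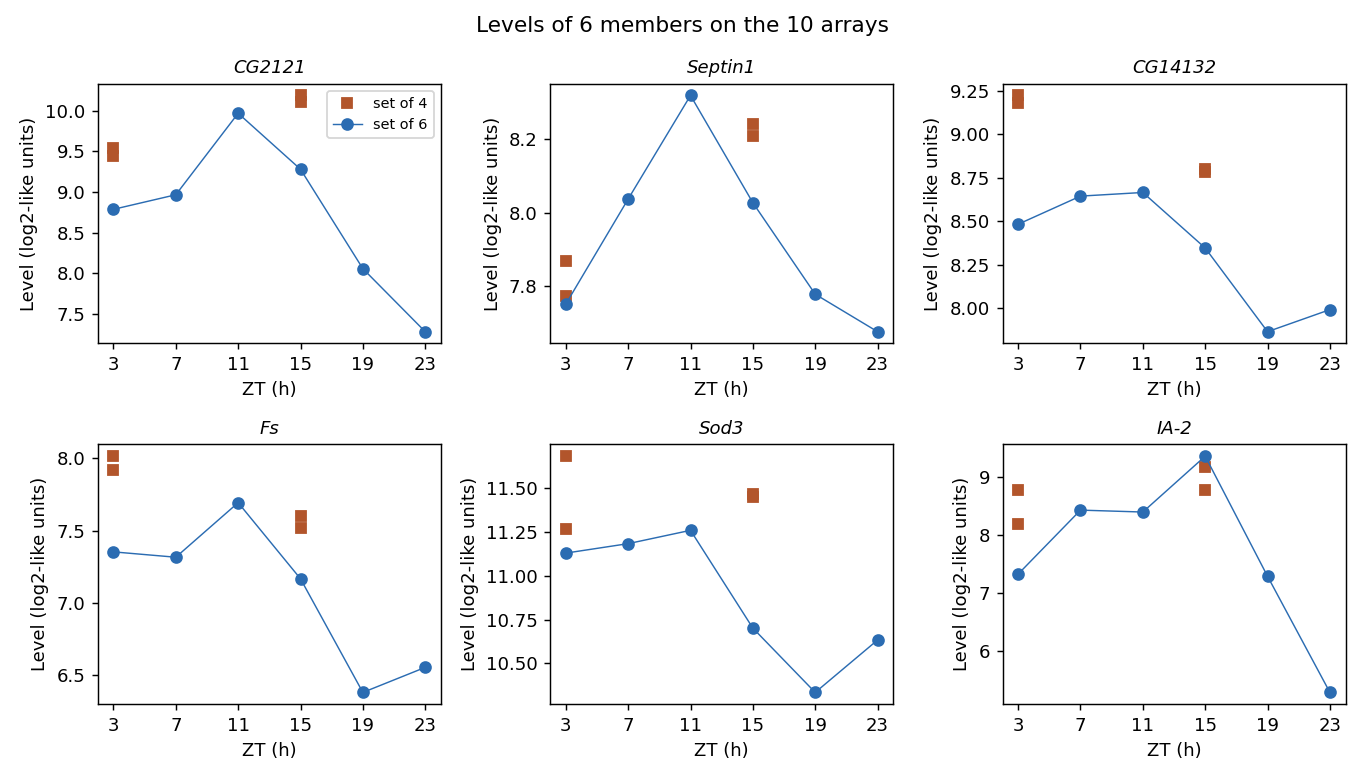
Levels of 6 members (y axes, natural log of the deposited value, read as log2) against time of day (x axes, ZT in hours) on the 4 arrays of the set of 4 (squares) and the 6 of the set of 6 (circles, joined). In the set of 6 all 6 genes were lowest at ZT19 or ZT23, while the highest array was ZT11 for 5 of them and ZT15 for IA-2.

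The smallest unadjusted p belonged to Septin1, a subunit of the septin filaments that shape the cell cortex. It was at 7.77, 7.87 and 7.75 at ZT3, 8.04 at ZT7, 8.32 at ZT11, 8.03, 8.21 and 8.24 at ZT15, 7.78 at ZT19 and 7.68 at ZT23. All 3 ZT3 arrays, from both array sets, lay below all 3 ZT15 arrays. Its amplitude was 0.32 ± 0.033 (SE), its unadjusted p 0.000147 and its limma adjusted p 0.0748. A second, brighter Septin1 probe set (mean level 9.28) had 0.14 ± 0.072 (SE), a peak at ZT10.68 and an unadjusted p of 0.207.

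CG14132 was at 9.18, 9.22 and 8.48 at ZT3, 8.64 at ZT7, 8.67 at ZT11, 8.35, 8.80 and 8.78 at ZT15, 7.86 at ZT19 and 7.99 at ZT23. Here ZT3 exceeded ZT15 within each array set and its fitted peak was ZT7.74. Its amplitude was 0.44 ± 0.057 (SE), with a limma adjusted p of 0.0598.

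Mtp, which loads lipids onto lipoproteins, was at 10.80, 10.81 and 9.93 at ZT3, 10.06 at ZT7, 10.18 at ZT11, 10.20, 11.06 and 11.04 at ZT15, and 9.89 and 9.88 at ZT19 and ZT23. The set of 4 lay 0.86 above the set of 6 in this gene, more than its amplitude of 0.18 ± 0.022 (SE). The nicotinic acetylcholine receptor subunit nAChRbeta3 was at 9.09, 9.30 and 8.78 at ZT3, 9.12 at ZT7, 9.32 at ZT11, 9.18, 9.41 and 9.53 at ZT15, 8.86 at ZT19 and 8.64 at ZT23. Its amplitude was 0.32 ± 0.042 (SE) and its peak ZT11.10.

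The rest of the 10 smallest p among members with 1 gene symbol had amplitudes from 0.0527 to 0.33. A probe set with no gene name here (p 0.000393) and the one annotated to 2 genes (p 0.00126) lay within this range of p and are not counted. They were spict, an endosomal inhibitor of BMP signalling at motor synapses (0.22, ZT9.95), the replication kinase gene Cdc7 (0.15, ZT6.16), Saysd1 (0.23, ZT11.40), the ribosomal protein gene RpS15 (0.053, ZT10.42), the Ly6-family gene bero (0.17, ZT7.85) and CG10311 (0.33, ZT9.42). Their unadjusted p lay between 0.000252 and 0.00136, and their limma adjusted p between 0.174 and 0.972.

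Among members with 1 gene symbol, the 10 largest amplitudes, CG2121 and 4 antennal probe sets among them, ran from 0.63 to 1.64. A probe set with no gene name here had 0.81. IA-2, which encodes a tyrosine phosphatase-like protein of dense core vesicles, was at 8.19, 8.79 and 7.33 at ZT3, 8.43 at ZT7, 8.40 at ZT11, 9.36, 9.17 and 8.77 at ZT15, 7.29 at ZT19 and 5.29 at ZT23. ZT23 was the lowest array by far, and the rest overlapped between times. Without ZT23 the amplitude was 0.8 (unadjusted p 0.141), against 1.35 with it (0.0419). A second probe set for IA-2, at a mean level of 13.6, peaked at ZT2.99 with an amplitude of 0.12.

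Cks30A, which encodes a small subunit of cyclin-dependent kinases that acts in female meiosis, differed more between ZT3 and ZT15 than within either time. It was at 7.12, 7.82 and 7.29 at ZT3, 6.71 at ZT7, 7.28 at ZT11, 5.04, 5.57 and 5.74 at ZT15, 5.85 at ZT19 and 4.90 at ZT23. Every ZT15 array lay below every ZT3 array, in both array sets. The amplitude was 1.19 ± 0.359 (SE) with a peak at ZT6.46, near the early edge of the window.

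CG17562 and CG16727 were low throughout the set of 4. CG17562 was at 3.18, 2.84, 2.90 and 2.28 on the set of 4. On the set of 6 it was at 9.83 at ZT3, 10.34 at ZT7, 8.74 at ZT11, 8.06 at ZT15, 7.51 at ZT19 and 7.52 at ZT23. CG16727 was at 4.75 to 5.51 on the set of 4 and had the same order over ZT3 to ZT19 on the set of 6, with 9.30 at ZT7 and 6.53 at ZT19. Their amplitudes were 1.27 ± 0.306 and 1.23 ± 0.311 (SE), and with the set of 6 only they were 1.45 and 1.35. Testis markers had a like split between the sets, with a median of 3.89 to 6.06 on the set of 4 and 10.05 to 11.35 on the set of 6, and 15 of 23 were highest at ZT7. Their median was also high at ZT19 (11.34, against 11.35 at ZT7), where CG17562 and CG16727 were lowest of the set of 6. The part of such transcripts was not tested. Sarm, which encodes an enzyme of axon degeneration, was the last of these 10 with an amplitude of 0.63 ± 0.177 (SE). Its other 4 probe sets had amplitudes from 0.018 to 0.25 and peaks from ZT6.75 to ZT23.90, so the probe sets of this gene disagreed.

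Probe sets for the same gene give a second reading with other probes on the same arrays, which is no replicate. For 5 genes both readings were members. Fs encodes follistatin, which binds activins. One Fs probe set was at 7.92, 8.01 and 7.35 at ZT3, 7.32 at ZT7, 7.69 at ZT11, 7.17, 7.52 and 7.60 at ZT15, 6.38 at ZT19 and 6.56 at ZT23. ZT19 and ZT23 lay below every other array, those at ZT15 included. The amplitudes of the pair were 0.61 ± 0.119 and 0.56 ± 0.136 (SE), with peaks at ZT8.20 and ZT7.95.

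Sod3, an extracellular superoxide dismutase that removes superoxide, had a similar pair. The brighter probe set was at 11.26, 11.68 and 11.13 at ZT3, 11.18 at ZT7, 11.26 at ZT11, 10.70, 11.45 and 11.47 at ZT15, 10.33 at ZT19 and 10.63 at ZT23. On the set of 6 the ZT3, ZT7 and ZT11 arrays lay between 11.13 and 11.26 and the others between 10.33 and 10.70. Its amplitudes were 0.43 ± 0.101 and 0.41 ± 0.106 (SE), with peaks at ZT8.28 and ZT7.98. The mitochondrial Sod2 had an amplitude of 0.013.

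Ref1, an RNA export factor, had amplitudes of 0.25 and 0.19 and peaks at ZT10.57 and ZT10.85, and another probe set, not a member, peaked at ZT10.41. CG34398 had amplitudes of 0.57 and 0.35, with peaks at ZT9.45 and ZT6.66. Obp19a is given with the antennal genes below. Beyond these pairs, 16 member genes had 19 other tested probe sets that were not members. Of these, 10 (52.6%) had a fitted peak in the window, against 33.7% of all tested probe sets, and their median amplitude was 0.139.

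Genes of the antenna formed a group with very large differences between the array sets. They included Obp19a and lush, odorant-binding proteins, of which the product of lush is needed to sense a male pheromone. a10 encodes an antennal protein, Antdh an antennal dehydrogenase, and Jhedup an esterase of the juvenile hormone esterase family. The brighter Obp19a probe set was at 13.03, 12.95, 13.001 and 13.07 on the set of 4, with the ZT3 pair first and the ZT15 pair after it. On the set of 6 it was at 2.26 at ZT3, 5.41 at ZT7, 6.01 at ZT11, 2.76 at ZT15, 3.07 at ZT19 and 2.70 at ZT23. ZT3 and ZT15 differed little within a set, and the fitted rhythm came from ZT7 and ZT11 within the set of 6, both far below every array of the set of 4. Its amplitude of 1.64 ± 0.497 (SE) was the largest of all members, and its unadjusted p of 0.0445 became 0.199 with the set of 6 only.

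a10 was at 11.98 to 12.11 on the set of 4. On the set of 6 it was at 5.07 at ZT3, 6.57 at ZT7, 7.58 at ZT11, 4.81 at ZT15, 5.14 at ZT19 and 4.57 at ZT23. Jhedup was at 11.82 to 12.09 on the set of 4 and, on the set of 6, at 3.84, 5.48, 6.88, 4.87, 4.13 and 4.30 in the same order of times. lush was at 11.20 to 11.48 on the set of 4, and at 5.13 and 4.96 at ZT7 and ZT11 against 4.08 to 4.54 on the rest of the set of 6. In these 3 genes, as in Obp19a, ZT7 and ZT11 were the highest of the set of 6, and every value there lay far below every value of the set of 4. Antdh was at 11.83 to 12.16 on the set of 4, and at 7.97 and 8.17 at ZT7 and ZT11, against 8.11 at ZT3, 7.87 at ZT15, 7.36 at ZT19 and 7.45 at ZT23.

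To set these members among other antennal genes, 17 measured antenna markers were examined, a list chosen after the members were seen. Of the 17, 14 were higher on the set of 4 by over 2, and 12 had a mean level of 6 or more. Of the 5 members 4 had ZT7 and ZT11 above the other 4 arrays of the set of 6, an order the rule favours, and of the other 12 markers 2 did, Obp83b and a5. Antennal genes passed the filter on mean level through the set of 4, so these counts are a description. The median difference of ZT7 and ZT11 from the other 4 arrays was 1.90 over the members and 0.05 over the other 12 markers. These 12 include markers under the mean level of 6, such as Obp59a, at 2.90 to 3.07 on the set of 6. The 7 of the 12 with a mean of 6 or more differed by 0.05 (Snmp1) to 2.86 (Obp83b), with Obp69a in the middle at 0.39. Obp83b, not a member, was at 7.58 and 8.40 at ZT7 and ZT11, against 3.97 to 5.66 on the other arrays of the set of 6 and 13.80 to 13.91 on the set of 4. Orco, the co-receptor of odorant receptors, was at 4.86 and 5.37, against 4.54 to 5.18 and 9.86 to 10.02. The summed level of the 12 markers that are not members was 14.78 to 14.89 on the set of 4. On the set of 6 it was 8.45 at ZT3, 9.10 at ZT7, 9.65 at ZT11, 8.81 at ZT15, 8.63 at ZT19 and 8.81 at ZT23, and Obp83b was the brightest of them at ZT7 and ZT11. The part of antennal RNA in the members' peaks was not tested.

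**Figure D4:**
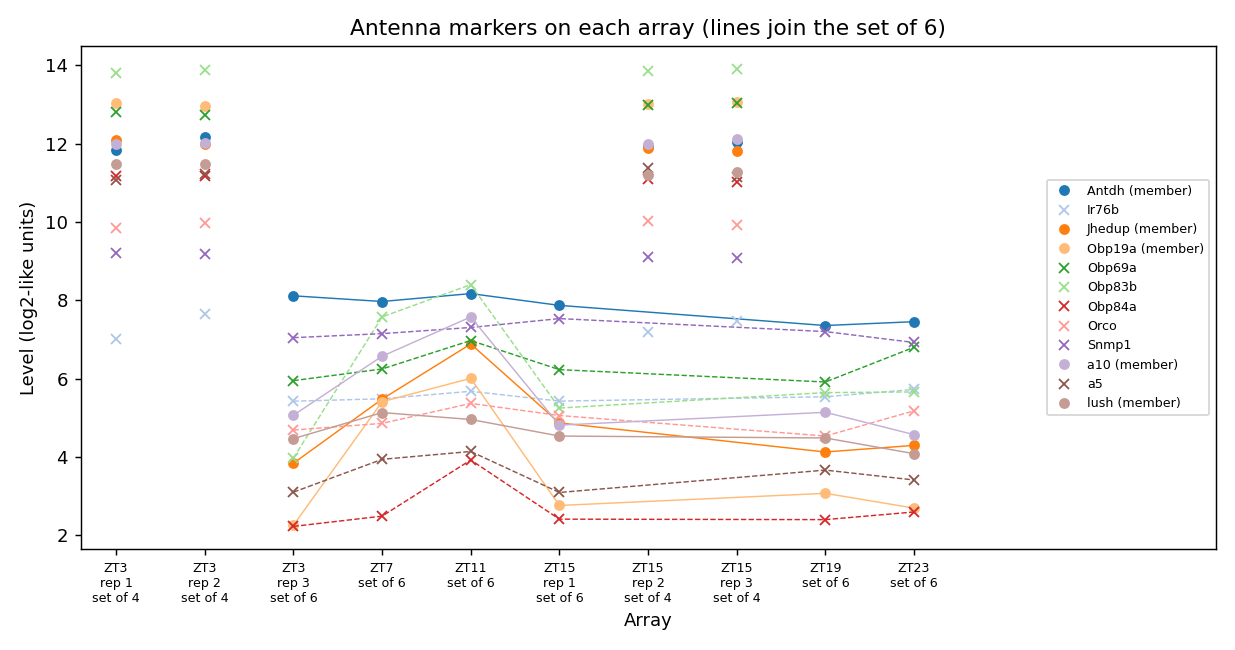
Levels of the 12 antenna markers with a mean of 6 or more (y axis, natural log of the deposited value, read as log2) on each array (x axis), with the 5 member genes as filled circles, the others as crosses, and lines joining the arrays of the set of 6. All 12 were higher on every array of the set of 4 than on any of the set of 6, and Obp19a, Obp83b, a10 and Jhedup stood highest at ZT7 and ZT11 within the set of 6.

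Genes of protein synthesis and folding had members in several lists. Over all genes with 1 symbol, 210 of 8383 (2.51%) had a member and 34.1% had a fitted peak in the window, whatever its p. Of 38 cytoplasmic ribosomal proteins 6 had a member, of 44 translation factors 6, and of 26 heat shock and chaperone genes 4. Their fitted peaks lay in the window in 27, 29 and 14 genes. The members rest on the unadjusted p, and no gene of these lists passed the limma adjusted p within the window.

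The chaperonin CCT, a ring of 8 different subunits that folds actin and tubulin, had all 8 subunits peaking in the window, a family examined after these values were seen. CCT6, CCT7 and CCT8 were members, with amplitudes of 0.30, 0.31 and 0.30 and peaks from ZT8.83 to ZT9.60. CCT7 was at 10.88, 10.87 and 10.74 at ZT3, 10.61 at ZT7, 11.01 at ZT11, 10.67, 10.90 and 10.75 at ZT15, 10.40 at ZT19 and 10.17 at ZT23. In the set of 6 it was highest at ZT11 and lowest at ZT23. The other 5 subunits had amplitudes from 0.20 to 0.30 and unadjusted p from 0.0605 to 0.261. All 8 were highest at ZT11 within the set of 6, where 25.4% of all genes were. The median of the 8 on that set was 10.76 at ZT3, 10.55 at ZT7, 10.98 at ZT11, 10.62 at ZT15, 10.35 at ZT19 and 10.16 at ZT23, so ZT7 lay below ZT3. The summed eggshell and oocyte level had the same 2 arrays highest in the set of 6, 13.31 at ZT11 and 12.6 at ZT3, and its part in the CCT levels was not tested. All 8 kept a peak in the window after quantile normalization and after median centring, while 1 of the 3 members met the rule after quantile normalization. The Hsp40 gene Droj2 was the fourth chaperone member (0.12, ZT11.40).

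The ribosomal protein members were RpS15, RpLP1, RpL36A, RpL37A, RpS20 and RpL7-like. RpLP1, a protein of the ribosomal stalk, was at 15.10, 15.11 and 14.93 at ZT3, 15.08 at ZT7, 15.16 at ZT11, 15.08, 15.12 and 15.08 at ZT15, 15.001 at ZT19 and 14.94 at ZT23. Its amplitude of 0.09 ± 0.026 (SE) corresponds to a peak 1.13 times the trough. Except for RpL7-like (0.18), amplitudes in this group were 0.053 to 0.09. After quantile normalization RpS15 had an amplitude of 0.009 (unadjusted p 0.855) and 2 of the 6, RpL7-like and RpS20, still met the rule. After median centring 4 did, and RpS15 peaked at ZT12.49, outside the window. Fitted peaks of the 38 genes then lay in the window in 20 (quantile) and 18 (median centring), against 30.8% and 26.8% of all genes. None of the 6 had an unadjusted p under 0.05 by limma's moderated test, which draws very small variances towards those of other probe sets.

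Mitochondrial ribosomal proteins had few fitted peaks in the window, 2 of 71 (2.82%, against 34.1% of all genes), and 0 members. Of the 71, 42 had a fitted peak from ZT18 to ZT24, where 25.3% of all tested probe sets had one. Of these 42, 13 had an unadjusted p under 0.05, against 11.7% of all tested probe sets that peaked there. The 23 with a peak from ZT12 to ZT18, where 22.5% of all tested had one, held 8 more, against 12.6%. The difference between the lists was not tested. None of the 71 passed the limma adjusted p.

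Among translation factors the members were eEF1gamma, eIF4E1, eIF4EHP, eIF2beta, eIF3d1 and the release factor gene eRF3. eIF4E1, which binds the mRNA cap to start translation, was at 12.15, 12.16 and 11.80 at ZT3, 11.93 at ZT7, 11.97 at ZT11, 11.80, 12.07 and 12.03 at ZT15, 11.73 at ZT19 and 11.78 at ZT23. eIF4EHP, a cap-binding repressor of translation, had a larger amplitude, 0.25 ± 0.065 (SE), and a peak at ZT7.30, but its second probe set peaked at ZT2.22. By the moderated test 1 of the 6 kept an unadjusted p under 0.05.

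Proteasome subunits had a fitted peak in the window in 25 of 28 genes (89.3%), the highest share of the 32 lists, yet 1 member, Rpn5 of the regulatory particle (0.16 ± 0.046, SE, ZT9.33). V-ATPase subunits, which acidify vesicles, had 15 of 23 in the window and 0 members. tRNA synthetases had 17 of 29 and 1 member, GlyRS (0.21, ZT10.25). Genes of vesicle traffic had 40 of 79 and 4 members. These were the sorting nexin gene Snx6 (0.19, ZT11.75), the ESCRT-III gene Vps60 (0.12, ZT9.87), the COPI coat gene gammaCOP (0.14, ZT11.25) and Sec61alpha, which forms the channel for proteins entering the endoplasmic reticulum (0.20, ZT10.88). Neurons and synapses had 3 of 31 in the window and 0 members, and oxidative phosphorylation had 16 of 71 and 0. Of all genes 2.51% had a member. After median centring the vesicle list had 23 of 79 in the window (29.1%, against 26.8% of all genes), and 2 of its 4 members met the rule. After quantile normalization it had 37 of 79 (46.8%, against 30.8%), and 1 of the 4 did. Median centring left proteasome subunits at 19 of 28, V-ATPase at 11 of 23, tRNA synthetases at 12 of 29 and oxidative phosphorylation at 5 of 71.

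**Figure D5:**
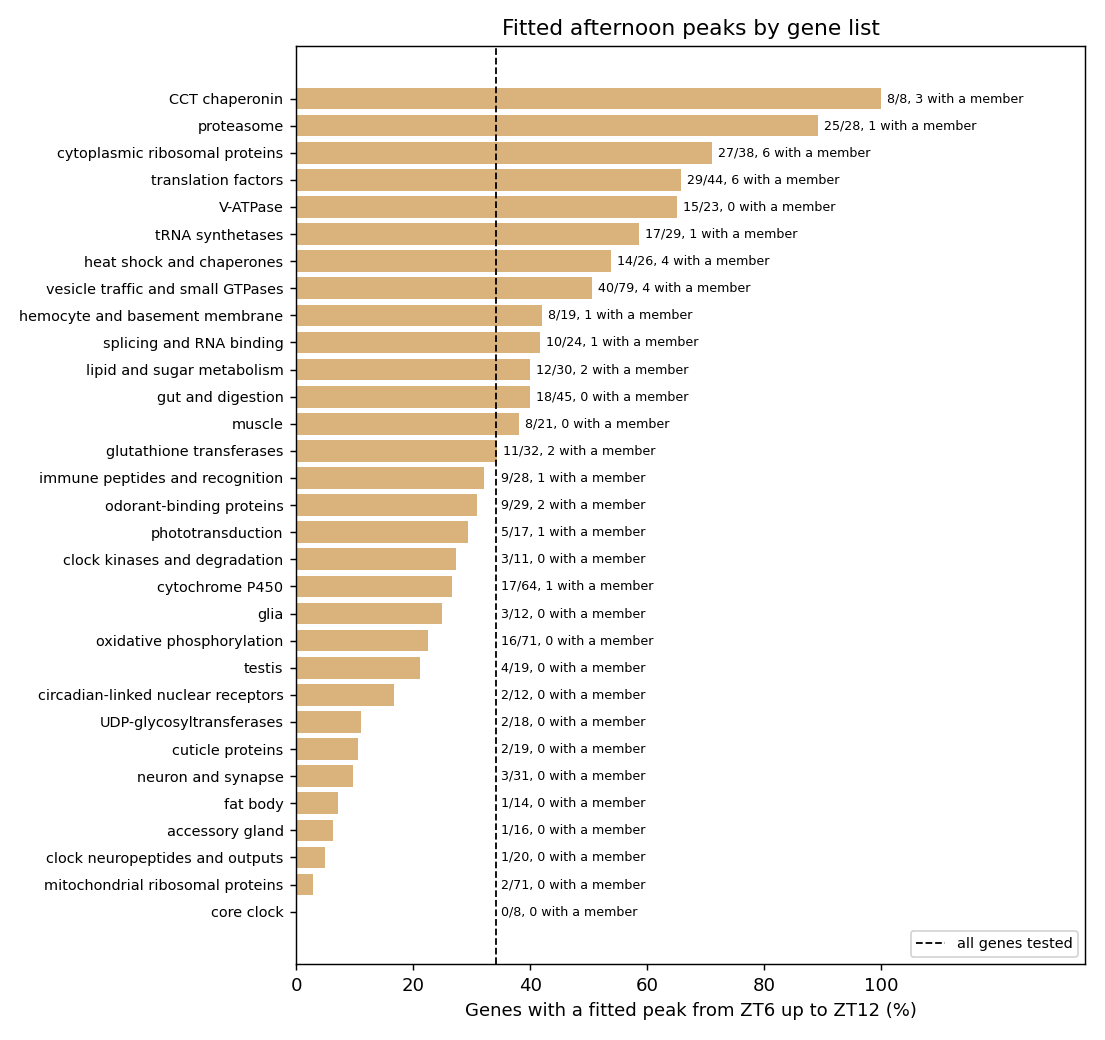
Share of each list's genes with a fitted peak from ZT6 up to ZT12 (x axis, percent of genes tested, 1 probe set per gene), for the lists with 8 or more genes tested and CCT, with the dashed line at the 34.1% of all genes. The antenna markers are left out. CCT chaperonin (8 of 8) and proteasome (25 of 28) stand highest of the lists drawn and core clock (0 of 8) and mitochondrial ribosomal proteins (2 of 71) at the bottom.

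Lipid and sugar genes had members in 2 of 30 genes (6.67%), glutathione transferases in 2 of 32 (6.25%) and cytochrome P450 genes in 1 of 64 (1.56%), against 2.51% of all genes. SREBP, the transcription factor that governs lipid synthesis in flies, was at 10.85, 10.85 and 10.73 at ZT3, 10.78 at ZT7, 11.02 at ZT11, 10.72, 10.96 and 11.05 at ZT15, and 10.54 and 10.53 at ZT19 and ZT23. ZT19 and ZT23 lay below all other arrays, those at ZT15 included. Its amplitude was 0.22 ± 0.04 (SE) with a peak at ZT10.08. The glycolytic enzyme gene Pgi had 0.22 ± 0.054 and a peak at ZT8.06. Of 64 cytochrome P450 genes 14 had an unadjusted p under 0.05 at any peak time, and of 32 glutathione transferase genes 13 did. Over all tested probe sets the share was 10.2%. Of the 14 cytochrome P450 genes 1, Cyp6a22 (0.16, ZT7.80), peaked in the window. Of the 13 glutathione transferase genes 2 were members, GstE11 (0.18, ZT11.94) and GstD9 (0.31, ZT6.002), both at an edge of the window. The differences from all probe sets were not tested.

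Single members of other lists were the splicing factor gene U2af50 (0.11, ZT10.74), the drosomycin-like peptide gene Drsl5 (0.19, ZT9.39), NimC1, a phagocytosis receptor of blood cells (0.31, ZT10.69), and santa-maria, a scavenger receptor for carotenoid uptake in visual pigment synthesis (0.23, ZT7.51). Drsl5 was at 14.29 to 14.48 on the set of 4 and 10.24 to 10.77 on the set of 6. Lists with 0 members were muscle (21 genes tested), fat body (14), glia (12), gut (45), cuticle (19), UDP-glycosyltransferases (18), nuclear receptors (12) and chemosensory receptors (3). Of all genes 2.51% had a member, so lists of these sizes would hold few or none, and nothing is read from their zeros.

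Members were not chosen on the size of the set term, but the rule bears on the difference between the array sets in other ways. It favours a small residual spread, 0.096 at the members' median against 0.188 over all tested. Some members met the mean level of 6 through the set of 4 or the set of 6 alone, such as Obp19a and CG17562. The shares below are therefore a description. Over the 6 arrays of ZT3 and ZT15, 120 of 253 members (47.4%) passed a test between the sets with an adjusted p under 0.05 (limma with time as a term), against 59.4% of all tested. Of these, 97 members (38.3%) were higher in the set of 4 and 23 (9.09%) were lower, against 38.3% and 21.1%. A difference over 2 was found in 12 members (4.74%), against 11.1%. The sets were drawn from these same values, and without ZT3 replicate 3 the members' count was 67 (26.5%), against 37.3% of all tested. The members' median difference (set of 4 minus set of 6) came to 0.192, and that of all tested probe sets to 0.204. Centring each array on its median over all 18769 probe sets, which lay at 6.04 to 6.14 on the set of 4 and 6.67 to 6.75 on the set of 6, raised the members' count to 230 (90.9%), against 85% of all tested. Under that centring the order of the 2 shares was turned round, so whether members differed more or less often between the sets depends on the scaling.

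ZT15 and ZT3, the 2 replicated times, lie on either side of the window. A 24-hour cosine that peaks in the middle of the window has the same fitted value at both times. Towards either edge of the window the 2 fitted values differ, and 63 members peaked from ZT11 to ZT12. None of the members differed between ZT15 and ZT3 at an adjusted p under 0.05 (limma, array set as a block), against 0.216% of all tested. Nothing is read from that count, which would be near 0 at the share of all tested too. By the unadjusted p, 45 of 253 members passed, a larger share than the 1106 of 10181 over all tested. These arrays also entered the fit that chose the members. Without ZT3 replicate 1 the number of members called was 1.

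Brightly measured transcripts were common among the members. A mean level over 14 was found in 23 members (9.09%), against 1.62% of all tested probe sets. Of these 23, 7 had 1 gene symbol, 5 of them ribosomal proteins, 2 had several and 14 had none here. Their amplitudes were 0.0457 to 0.159. Residual spread was small at such levels, with a median SD of 0.0612 over all 165 tested probe sets over 14. Of those 165, 104 (63%) had a fitted peak in the window.

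Of 5602 pairs of adjacent protein-coding genes that were both tested, by their order in the RefSeq annotation of assembly Release 6, 3 pairs had members in both genes. They were Tsp42Ea with CG30159, Fmr1 with CAH7, and CG3226 with Cdc7. In 285 pairs 1 of the 2 genes had a member. With 2.51% of all genes holding a member, nothing is read from these counts. Fmr1 encodes an RNA-binding protein of synapses, and Tsp42Ea a tetraspanin.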

How the data were processed

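Total RNA from heads of yw flies was extracted with Trizol, labelled with biotin and hybridised to Affymetrix arrays, per the labels' protocols. The authors deposited intensities, 1 for each probe set on each array. GCRMA is the tool that the submitters' processing notes name, without version or settings. The deposited intensities reach 8528000, above the 65536 levels of a scanner, and their natural log reaches 15.96. They are therefore likely GCRMA log2 values raised to the base e, so natural logs were used and read as log2 values.

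The 183 control probe sets were left out, as were probe sets with a mean under 6. Each of the remaining 10181 was fitted by ordinary least squares with cosine and sine of 24-hour time and an array set term, with an F test on both time terms (Python 3.11.15, numpy 2.4.6, scipy 1.17.1). Adjusted p-values came from limma 3.58.1 in R 4.3.3 (lmFit, eBayes) with Benjamini-Hochberg adjustment over 10181 probe sets and a threshold of 0.05. ZT15 was compared with ZT3, and the set of 4 with the set of 6, over 6 arrays. Gene symbols came from the platform's annotation, updated by RefSeq gene identifiers. For lists, each gene was represented by its highest probe set. The fits were tested on simulated data. The number of arrays limits the precision.

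The named genes are, among members with 1 gene symbol, the 10 smallest p, the 10 largest amplitudes, genes with 2 member probe sets, and up to 3 members per list. Further list members were named after their values were seen. The members, array sets and lists were chosen with earlier results of these data known. The chaperonin and antenna lists were added after values were seen. Deviations of same-numbered ZT3 and ZT15 arrays from their time means correlated at -0.913, 0.834 and -0.93 for numbers 1, 2 and 3. Arrays numbered 1, and those numbered 3, lie in different array sets, while both arrays numbered 2 lie in the set of 4. The set was not removed first, so these correlations cannot tell whether same-numbered arrays pair.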

Additional observations from a re-analysis of the deposited data

How the results depend on the processing

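Without the array set term 73 probe sets met the rule instead of 253, and leaving out 1 array at a time gave 175 to 483, the highest without ZT7 (178 of the 253 among them). Adjusted rhythm calls at any peak time fell to 6 without the set term, against 75 with it, and were 17 to 98 with 1 array left out. The 22 calls between ZT15 and ZT3 became 4 without the set term and 4 to 7 with 1 array left out. With the replicate number as a block beside the array set, limma gave 0 calls (1019 at an unadjusted p under 0.05), and with the replicate block in place of the set it gave 0 (82). Whether the replicate numbers pair the arrays could not be told. The 6050 calls between array sets became 3802 to 5495 with 1 array left out, lowest without ZT3 replicate 3. The cause was not tested. The 51 named probe sets kept their unadjusted call in 687 of 918 alternative fits, lost it in 231 and reversed in 0. These fits were unlike in strength. All 51 kept it with log2(value + 1), with 16 added to each value, or with a mean of 4 or more, which could hardly change a call. Without the set term 10 of the 51 kept it, and with the set of 6 only, 25 did. With the set of 6 only, 88 of the 253 members met the rule. Under the moderated F, 26 of 32 lists kept their number of genes with members within 1.5 times. That count includes lists without any member, so it says little about the lists with members. All cytoplasmic ribosomal members and most translation factor members lost their unadjusted call under the moderated F. After median centring the share of all genes with a fitted peak in the window was 26.8%, against 34.1% as reported. Promoter motifs were planned and not run, because no promoter sequence was used here. ZT7, ZT11, ZT19 and ZT23 rest on 1 array each, which limits every peak time given.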
